A study of Mus musculus with 12 samples.

Results

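Interleukin-1 (IL-1) family ligands and receptors were followed in mouse macrophages with and without *Keap1*. The group held 9 genes: the ligands *Il1a* (IL-1α), *Il1b* (IL-1β), *Il1f9* (IL-36γ, also named *Il36g*) and *Il18* (IL-18), the soluble inhibitors *Il1rn* (the IL-1 receptor antagonist) and *Il18bp* (the IL-18 binding protein), and the receptor chains *Il1r1*, *Il1r2* and *Il1rap*. Members were found by gene name, through the transcript accession of the array's probes, a rule that uses no measured value. 17 of the 41174 probes and 9 of the 32301 genes or transcripts on the array belonged to them, and each gene is given by its brightest probe.

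IL-1 family cytokines are among the first messages that a macrophage makes when it meets a microbial product. IL-1α and IL-1β bind IL1R1, which takes up the shared accessory chain IL1RAP and starts MyD88-dependent signalling to NF-κB. The receptor antagonist occupies IL1R1 without signalling, IL1R2 is a decoy without a signalling domain, and the IL-18 binding protein holds IL-18 away from its receptor. IL-36γ acts through its own receptor, which also pairs with IL1RAP, and is best known from skin and other barrier tissues. IL-1β and IL-18 are made as precursors that an inflammasome protease cuts.

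Bone-marrow-derived macrophages (BMDMs) came from C57BL/6 mice aged 8 weeks, either wild type (WT) or *Keap1* flox/flox::*LysM*-Cre (KpCKO), in which Cre is driven from the *LysM* locus and is active in myeloid cells. KEAP1 marks the transcription factor Nrf2 for degradation, so its loss lets Nrf2 accumulate. Marrow was grown for 7 days with M-CSF and then left untreated (Con), stimulated for 6 h with LPS and IFNγ (M1), or stimulated for 6 h with IL-4 (M2), which gave 6 groups of 2 arrays. Each of the 2 cultures held 1 WT and 1 KpCKO mouse, both male in culture 1 and both female in culture 2, so culture and sex cannot be told apart, and the 3 arrays of a genotype in a culture share their mouse.

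A level is the log2 of the background-subtracted intensity less the 75th percentile of its array, so 0 is the signal at that percentile and a step of 1 is a 2-fold change. Levels are compared between arrays within a probe and not between genes, whose probes differ in brightness. Differences were tested with limma across the 22370 genes whose probe stood well above background on the 2 arrays of 1 group or more, with culture as a block, and a gene was called at a Benjamini-Hochberg adjusted p under 0.05. All 9 members were tested, and 8 of them were well above background on all 12 arrays. *Il1f9* was the exception, at 9 of 12 arrays, and entered the test through the KpCKO groups and WT M1, where both arrays were well above background. Since a group has 2 arrays, an exact permutation test of 1 gene could not go below p = 0.333, and each p rests on a spread pooled over all groups. In bulk RNA, fewer cells of a type and less RNA per cell cannot be told apart.

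The 4 arrays of a stimulus shared a slide and a scan, so genotypes were compared within a slide, whereas stimulus and slide cannot be told apart. Between 59.3% and 71.4% of the probes of an array were well above background. *Keap1* was lower in KpCKO than in WT by a log2 difference between -1.46 and -1.81 over the 3 stimuli. *Nqo1*, a standard Nrf2 target, was higher by between 3.23 and 3.52. Whether the *Keap1* probe lies inside the deleted part was not given in the sources used here. All 7 measured macrophage markers were well above background in every group.

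The genes with the clearest differences between the genotypes lie in 2 ligand clusters of chromosome 2, and the 250 bases before their annotated start are shown here because members of the same cluster moved in opposite directions. Sequences are from RefSeq on GRCm38.p6, 5′ to 3′ on the strand of the gene, and capitals mark matches to the motifs named after them. *Il1f9* (chr2:24186226-24186475, plus strand), which was higher in KpCKO:
Il1f9: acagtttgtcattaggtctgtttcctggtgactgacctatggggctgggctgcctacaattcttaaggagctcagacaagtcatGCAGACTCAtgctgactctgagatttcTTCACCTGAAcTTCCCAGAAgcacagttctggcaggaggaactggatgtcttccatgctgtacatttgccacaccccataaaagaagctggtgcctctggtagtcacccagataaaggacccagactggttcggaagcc
*Il1rn* (chr2:24336610-24336859, plus strand, the most upstream of its 3 starts), which was lower in KpCKO after M1:
Il1rn: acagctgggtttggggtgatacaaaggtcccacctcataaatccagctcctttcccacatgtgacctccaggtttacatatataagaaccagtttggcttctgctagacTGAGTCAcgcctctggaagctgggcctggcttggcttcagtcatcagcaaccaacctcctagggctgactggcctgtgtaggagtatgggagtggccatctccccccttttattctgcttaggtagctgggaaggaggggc
*Il1a* (chr2:129309973-129310222, minus strand), which was lower in KpCKO after M1:
Il1a: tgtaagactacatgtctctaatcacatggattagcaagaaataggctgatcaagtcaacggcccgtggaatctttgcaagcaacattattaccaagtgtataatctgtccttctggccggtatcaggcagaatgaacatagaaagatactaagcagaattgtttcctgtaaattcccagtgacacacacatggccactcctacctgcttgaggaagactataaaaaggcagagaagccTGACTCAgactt
*Il1b* (chr2:129371140-129371389, minus strand), which was lower in KpCKO at every stimulus:
Il1b: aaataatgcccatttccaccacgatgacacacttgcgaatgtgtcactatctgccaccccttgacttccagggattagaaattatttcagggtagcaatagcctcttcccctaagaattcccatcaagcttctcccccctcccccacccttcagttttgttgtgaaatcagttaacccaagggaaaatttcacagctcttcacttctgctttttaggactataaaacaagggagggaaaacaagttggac

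The motifs were searched on both strands of the 12 annotated promoters of the 9 genes. They were the antioxidant response element bound by Nrf2 in its forms TGACNNNGC and TGAGNNNGC, AP-1 (TGANTCA), C/EBP (TTGCNNAA), the interferon element ISRE (GAAANNGAAA), the STAT element GAS (TTCNNNGAA), the STAT6 element (TTCNNNNGAA) and the NF-κB site by its common consensus. *Il1f9* held TGAGTCTGC on the opposite strand, 166 to 158 bases before its start, and STAT6 and GAS matches at 139 to 130 and 128 to 120 bases. *Il1a* held TGACTCA for AP-1 at 12 to 6 bases and *Il1rn* held TGAGTCA at 141 to 135 bases, whereas none of these motifs was found in the *Il1b* window. Of all 32851 promoter windows of this length, 14.4% held the TGAGNNNGC form, 10.2% the TGACNNNGC form, 6.75% AP-1 and 9.56% C/EBP. ISRE was held by 2.98%, GAS by 7.02%, STAT6 by 5.85% and the NF-κB consensus by 7.25%. The 9 genes had the TGAGNNNGC form in *Il1f9* and *Il1r1*, the TGACNNNGC form and ISRE in no window, and the NF-κB consensus in *Il1r1*. C/EBP was found in *Il18bp* and *Il1r1*, and GAS in *Il1f9* and *Il1r2*. STAT6 was found in 4 of the 12 windows, those of *Il1f9*, *Il18* and overlapping windows of *Il1rn* that share 1 match. A match describes the letters in these windows and does not show a site in use.

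*Il1f9* was the member that differed most between the genotypes, and it was higher in KpCKO at all 3 stimuli. In WT Con its level was -6.32 and -8.18 in cultures 1 and 2, and in KpCKO Con it was -1.13 and -2.46. After M1 it was -4.53 and -4.36 in WT and 1.52 and 1.09 in KpCKO. After M2 it was -6.54 and -8.56 in WT and -2.51 and -3.68 in KpCKO. No WT array reached the lowest KpCKO array, even across stimuli. The probe was well above background on 1 of 2 WT Con arrays, on no WT M2 array and on both arrays of every other group.

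KpCKO exceeded WT in *Il1f9* by 5.45 ± 0.51 (SE; limma, adjusted p = 0.00443) in Con as fitted. With the dim WT Con array set at the lowest level well above its background, the KpCKO level was at least 27.9-fold higher. After M1 the difference was 5.75 ± 0.51 (adjusted p = 0.00164), or 53.9-fold. After M2 the fitted difference was 4.46 ± 0.51 (adjusted p = 0.00971), and against the background of the WT arrays the KpCKO level was at least 11.9-fold higher. A second *Il1f9* probe was 5.18 higher in KpCKO after M1 (adjusted p = 0.00205, limma on single probes). None of the WT Con and WT M2 arrays had it well above background, and against these the KpCKO level was at least 12.3-fold and 4.07-fold higher. The size depended on how the dim WT arrays were corrected for background. Normexp was run with an offset of 50 added to every intensity, which lifts dim levels and shrinks differences from them. With it, *Il1f9* was higher by 2.27 in Con (limma, adjusted p = 0.19), 3.93 in M1 (adjusted p = 0.0123) and 0.53 in M2 (adjusted p = 0.54). How much of the smaller values came from the offset was not tested. Without replicate 1 of KpCKO Con the adjusted p in Con was 0.0541, and it lay between 0.0513 and 0.0782 in M2 when any 1 of the 4 arrays compared was left out.

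**Figure D1:**
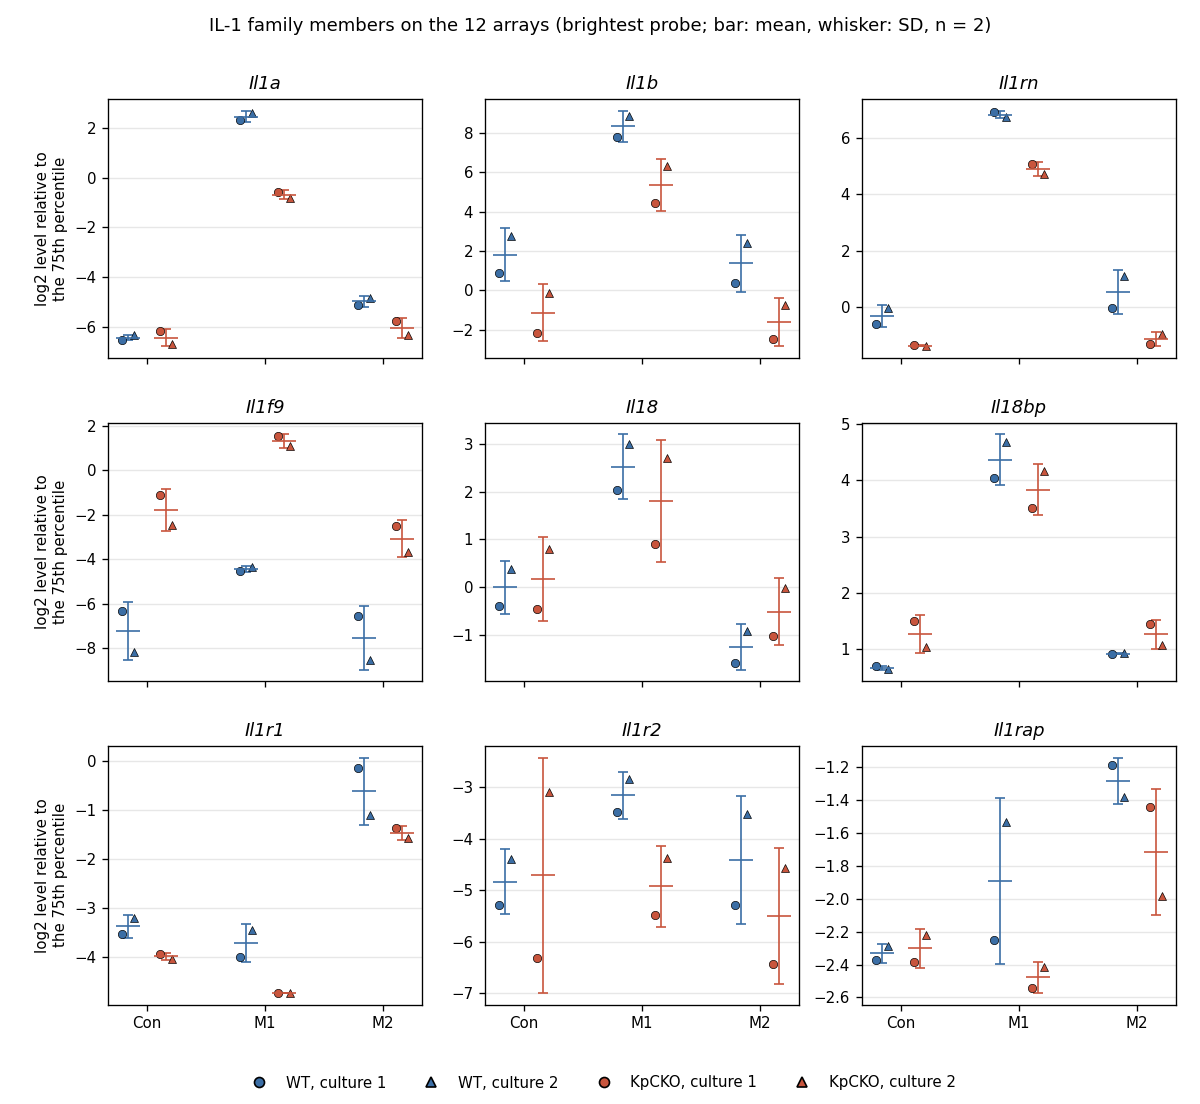
Log2 level relative to the 75th percentile of the array (vertical axis, own range in each panel) of the brightest probe of each of the 9 members in Con, M1 and M2, with WT in blue, KpCKO in red, circles for culture 1, triangles for culture 2, a bar for the mean and whiskers for the SD (n = 2). *Il1f9* sits higher in KpCKO at all 3 stimuli, *Il1b* lower at all 3, and *Il1a* separates after M1, at 2.31 and 2.62 in WT against -0.56 and -0.82 in KpCKO.

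*Il1b*, the main secreted ligand of IL1R1, moved the other way and was lower in KpCKO at all 3 stimuli, by about the same factor each time. Its level in WT Con was 0.85 and 2.76, and in KpCKO Con it was -2.15 and -0.12. After M1 it was 7.78 and 8.88 in WT and 4.42 and 6.31 in KpCKO. After M2 it was 0.35 and 2.40 in WT and -2.48 and -0.73 in KpCKO. The groups of WT and KpCKO did not overlap at any stimulus. With 2 arrays against 2, such a separation cannot give an exact permutation p under 0.333. KpCKO was below WT by -2.95 ± 0.23 in Con (limma, adjusted p = 0.00241), by -2.96 ± 0.23 in M1 (adjusted p = 0.00103) and by -2.99 ± 0.23 in M2 (adjusted p = 0.00229), which are 7.71-, 7.79- and 7.92-fold. In 6 of 6 pairs of arrays from the same culture KpCKO was lower, by a difference between -2.57 and -3.35. The 3 pairs of a culture share their mice and are not separate replicates.

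The cultures differed in *Il1b*, and this bears on its test. Culture 2 was higher than culture 1 in all 6 groups, by between 1.10 and 2.05. The size of the mean culture difference was 1.79, as against a median size of 0.19 over all tested genes. *Il18* (between 0.67 and 1.80) and *Il1r2* (between 0.65 and 3.23) were also higher in culture 2 in all 6 groups, and 13.6% of all tested genes were. With the pairing of the cultures left out of the fit, the difference in *Il1b* between KpCKO and WT did not pass (adjusted p = 0.446 for Con, 0.159 for M1, 0.452 for M2). With the culture as a block, and within each culture taken alone, *Il1b* was lower in KpCKO.

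*Il1a*, an alarmin held in the cell and released on damage, differed between the genotypes after M1, whereas in Con it was near background in both. Its level in Con was -6.51 and -6.35 in WT and -6.18 and -6.68 in KpCKO, which overlapped. The lowest level well above background on the Con arrays lay between -7.14 and -6.87, so a much lower KpCKO level in Con could not have been seen. After M1 it was 2.31 and 2.62 in WT and -0.56 and -0.82 in KpCKO. After M2 it was -5.12 and -4.82 in WT and -5.75 and -6.33 in KpCKO. KpCKO was thus lower after M1 by -3.15 ± 0.25 (limma, adjusted p = 0.00121), an 8.88-fold difference, while the Con difference was -0.0015, with a 95% interval from -0.60 to 0.60. The M2 groups did not overlap, as 2 arrays against 2 can readily do by accident, and the difference of -1.07 did not pass the test (adjusted p = 0.114). The second *Il1a* probe gave -3.15 after M1 (adjusted p = 0.00432).

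*Il1rn*, the antagonist that competes with both IL-1 ligands, followed *Il1b* in direction. After M1 its level was 6.90 and 6.72 in WT and 5.06 and 4.72 in KpCKO, so KpCKO was lower by -1.92 ± 0.33 (limma, adjusted p = 0.0152), or 3.79-fold. A second probe gave -2.21 (adjusted p = 0.0114). In Con it was -0.60 and -0.04 in WT and -1.36 and -1.38 in KpCKO, and in M2 -0.02 and 1.09 against -1.31 and -0.96. WT lay above KpCKO without overlap at both of these stimuli too, as 2 arrays against 2 can readily do by accident. The differences of -1.04 in Con (limma, adjusted p = 0.213) and -1.67 in M2 (adjusted p = 0.0678) did not pass. Without replicate 2 of KpCKO M1 the M1 difference of *Il1rn* was -1.57 and its adjusted p 0.054.

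The IL-18 pair and the receptors showed no called difference between the genotypes. *Il18*, the IFNγ-inducing ligand, differed by 0.18 (Con), -0.72 (M1) and 0.73 (M2), with adjusted p values of 0.874, 0.101 and 0.259 (limma). *Il18bp* differed by 0.60, -0.53 and 0.34, with adjusted p values of 0.452, 0.255 and 0.693. *Il1r1* was lower in KpCKO in all 6 pairs of arrays from the same culture, by -0.61 (Con), -1.01 (M1) and -0.85 (M2) on average, none of which passed (adjusted p = 0.484, 0.0779 and 0.301). These pairs too share mice within a culture. The unadjusted 95% intervals of *Il1r1* ran from -1.38 to 0.16 in Con, from -1.78 to -0.24 in M1 and from -1.62 to -0.08 in M2. Those of M1 and M2 thus left out 0 before the adjustment over all genes. So did those of *Il18* in M1 (-1.32 to -0.11) and M2 (0.13 to 1.34) and of *Il1r2* in M1 (-3.12 to -0.42). The decoy *Il1r2* differed by 0.12, -1.77 and -1.09 (adjusted p = 0.973, 0.0776 and 0.454), and its second probe, which was well above background on 6 of 12 arrays, passed after M1 at -1.57 (adjusted p = 0.031 on single probes). *Il1rap* differed by 0.03, -0.59 and -0.43 (adjusted p = 0.988, 0.168 and 0.537).

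Counted over the 9 members, KpCKO was higher in 1 and lower in 1 in Con, where 2.21% of all tested genes were called. After M1 it was higher in 1 and lower in 3, against 16.0% of all genes. After M2 it was higher in 1 and lower in 1, against 1.93% of all genes. The gene higher in KpCKO was *Il1f9* each time, and *Il1b* was among the lower genes each time. Over the 9 members the median difference was 0.03 (Con), -1.01 (M1) and -0.85 (M2), and over all tested genes it was 0.0015, -0.0868 and 0.0194. Among all genes called in M1, 46.3% were higher in KpCKO with the 75th percentile and 60.0% with quantile normalization, and the directions of *Il1a*, *Il1b*, *Il1rn* and *Il1f9* were the same under both.

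**Figure D2:**
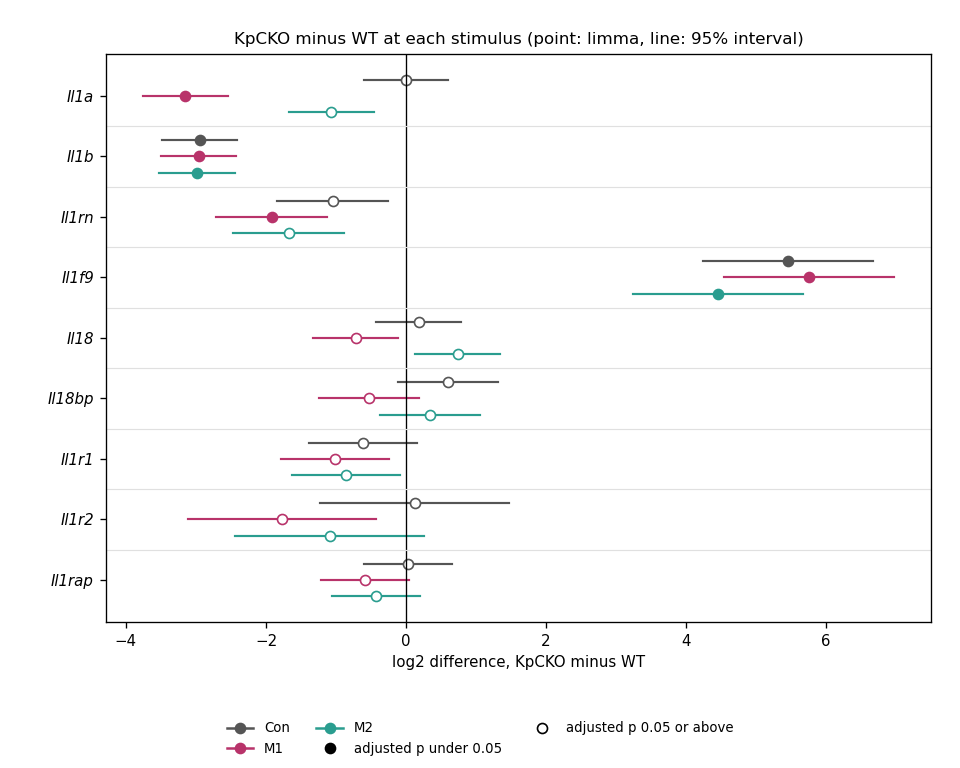
Log2 difference KpCKO minus WT (horizontal axis) of each member in Con, M1 and M2, as the limma estimate (point, filled where the adjusted p is under 0.05) with its unadjusted 95% interval (line). *Il1f9* lies between 4.46 and 5.75 and *Il1b* between -2.95 and -2.99 at the 3 stimuli, whereas *Il1a* is at -0.0015 in Con and at -3.15 in M1.

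Markers of other cells that a marrow culture can hold were read beside these differences. Of 10 tested neutrophil markers, 1 was higher in KpCKO after M1 (*Mmp8*, by 2.09, adjusted p = 0.0181) and 2 after M2 (*Mmp8*, by 2.50, and *Fcnb*), and none in Con. *Fcnb* was not well above background on either WT M2 array and its KpCKO level did not exceed the background there, so no size is given. The mean level of the 11 measured neutrophil markers lay between -2.91 and -2.18 over the WT Con arrays and between -2.63 and -1.88 over the KpCKO Con arrays. After M1 this mean lay between -2.80 and -2.43 for WT and between -2.70 and -2.31 for KpCKO. After M2 it lay between -2.80 and -2.19 for WT and between -2.71 and -1.66 for KpCKO. Between 8 and 10 of these 11 markers were well above background on both arrays of a group, whereas *Elane* was not on any array. Of 7 macrophage markers, 4 were lower in KpCKO after M1 and 1, *Cd14*, was lower at all 3 stimuli, by -1.19 in Con, -1.33 in M1 and -0.86 in M2. Over all tested genes, 2.21% were called between the genotypes in Con, 16.0% in M1 and 1.93% in M2. None of 6 stromal, 4 mast cell or basophil, 3 T cell and 2 B cell markers was called between the genotypes, and of 4 dendritic cell markers *Xcr1* was lower after M1. The part of these markers in the differences of the IL-1 genes was not tested.

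M1 stimulation raised most of the family. In WT, 7 of the 9 members were higher than in Con and none was lower, in a comparison in which 63.2% of all tested genes were called. *Il1a* rose by 8.90 ± 0.25 (limma, adjusted p = 3.3e-06), or 476-fold, from levels of -6.51 and -6.35 to 2.31 and 2.62. Its Con levels lay near the lowest level well above background on these arrays (-7.00 and -6.87), so the fold depends on the background correction. With normexp and its offset of 50 the rise of *Il1a* was 6.16 (limma, adjusted p = 1.73e-05). *Il1rn* rose by 7.13 ± 0.33 (adjusted p = 9.09e-06), or 140.5-fold, and *Il1b* by 6.52 ± 0.23 (adjusted p = 4.51e-06), or 91.7-fold. The ligands and their antagonist were therefore raised together. *Il18bp* rose by 3.69 (adjusted p = 6.75e-05), *Il1f9* by 2.80 (adjusted p = 0.00265), *Il18* by 2.52 (adjusted p = 0.000175) and the decoy *Il1r2* by 1.68 (adjusted p = 0.0361). *Il1f9* was well above background on 1 of 2 WT Con arrays, and with normexp its difference was 1.10 and did not pass (adjusted p = 0.14). *Il1r2* did not pass when the cultures were not paired or without either WT Con array or the first WT M1 array. The signalling chain *Il1r1* differed by -0.35 (adjusted p = 0.38) and *Il1rap* by 0.44 (adjusted p = 0.186).

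KpCKO cells raised 6 of the 9 members after M1, where 50.2% of all genes were called. *Il1b* rose by 6.50 ± 0.23 (limma, adjusted p = 7.49e-06), or 90.8-fold, from levels of -2.15 and -0.12 to 4.42 and 6.31. *Il1rn* rose by 6.26 ± 0.33 and *Il1a* by 5.75 ± 0.25, or 53.7-fold. With normexp the rise of *Il1a*, dim in Con, was 3.24 (adjusted p = 0.000454). *Il1b* was thus multiplied by about the same factor in both genotypes, from a lower start in KpCKO. *Il1f9* rose by 3.10, *Il18bp* by 2.56 and *Il18* by 1.62, with adjusted p values of 0.00229, 0.000517 and 0.0019. The values of *Il1r2* (-0.22), *Il1rap* (-0.18) and *Il1r1* (-0.74) did not pass. The second *Il1r2* probe pointed the other way, at 0.88, and did not pass either (adjusted p = 0.0809, limma on single probes).

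Whether the genotypes differed in how they responded to M1 was tested as an interaction, and limma called 0 of the 9 members. It called 16 of 22354 genes, or 0.0716%, and 3662 genes had an unadjusted p under 0.05. *Il1a* came nearest, with a response smaller in KpCKO by -3.15 ± 0.36 (adjusted p = 0.0504), -3.20 in culture 1 and -3.10 in culture 2. Because *Il1a* was near background in Con in both genotypes, a lower start in KpCKO could not have been seen. Such a start would make the difference in response smaller, so the fitted value mostly restates the difference between the genotypes after M1. Over the alternative settings its adjusted p ran from 0.0181 to 0.352 and passed in 5 of 19. The interaction of *Il1b* was -0.01, with a 95% interval from -0.78 to 0.75, that of *Il1rn* was -0.88 (adjusted p = 0.4) and that of *Il1f9* was 0.30 (adjusted p = 0.86). *Il18bp* (-1.13, adjusted p = 0.271), *Il18* (-0.90, adjusted p = 0.291) and *Il1r2* (-1.90, adjusted p = 0.308) also had smaller fitted responses in KpCKO that did not pass. For *Il1r2* the value was -0.96 in culture 1 and -2.83 in culture 2, and its second probe gave only -0.44 (adjusted p = 0.688, limma on single probes). These interactions share their arrays with the comparisons above and are not further evidence for them.

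After M2 in WT, 4 of the 9 members were called: *Il1r1*, *Il1a* and *Il1rap* rose and *Il18* fell, in a comparison in which 16.8% of all genes were called. *Il1r1*, the signalling receptor, was at -3.53 and -3.21 in WT Con and at -0.13 and -1.10 in WT M2, a rise of 2.75 ± 0.33 (limma, adjusted p = 0.00338), or 6.75-fold. *Il1a* rose by 1.46 (adjusted p = 0.012), its partner chain *Il1rap* by 1.05 (adjusted p = 0.0394), and *Il18* fell by 1.24 (adjusted p = 0.0209). *Il1r1* alone of these 4 passed with any 1 of the 4 arrays left out, and *Il1a* also passed without the first WT M2 array. The second *Il1a* probe, which was well above background on 1 of the 4 Con arrays, rose by 0.88 and did not pass (adjusted p = 0.15). With normexp the *Il1a* rise was 0.95 and did not pass either (adjusted p = 0.148). The 4 *Il1rap* probes did not move together, at 1.05, 0.58, 1.17 and -0.71 in the same comparison, and the last pair were dim, with 6 and 2 of 12 arrays well above background.

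In KpCKO, *Il1r1* was the only member called after M2, where 10.2% of all genes were. Its level was -3.94 and -4.03 in Con and -1.37 and -1.57 in M2, a rise of 2.51 ± 0.33 (limma, adjusted p = 0.00726), or 5.71-fold. Without either KpCKO Con array its adjusted p was 0.0516 or 0.0591. *Il1a* differed by 0.39, *Il1rap* by 0.59 and *Il18* by -0.68 (adjusted p = 0.376, 0.21 and 0.144). No member differed between the genotypes in the M2 response by limma: 2 of 22365 genes were called, or 0.00894%, and 451 had an unadjusted p under 0.05. *Il1r1* had an interaction of -0.24, with a 95% interval from -1.33 to 0.85.

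**Figure D3:**
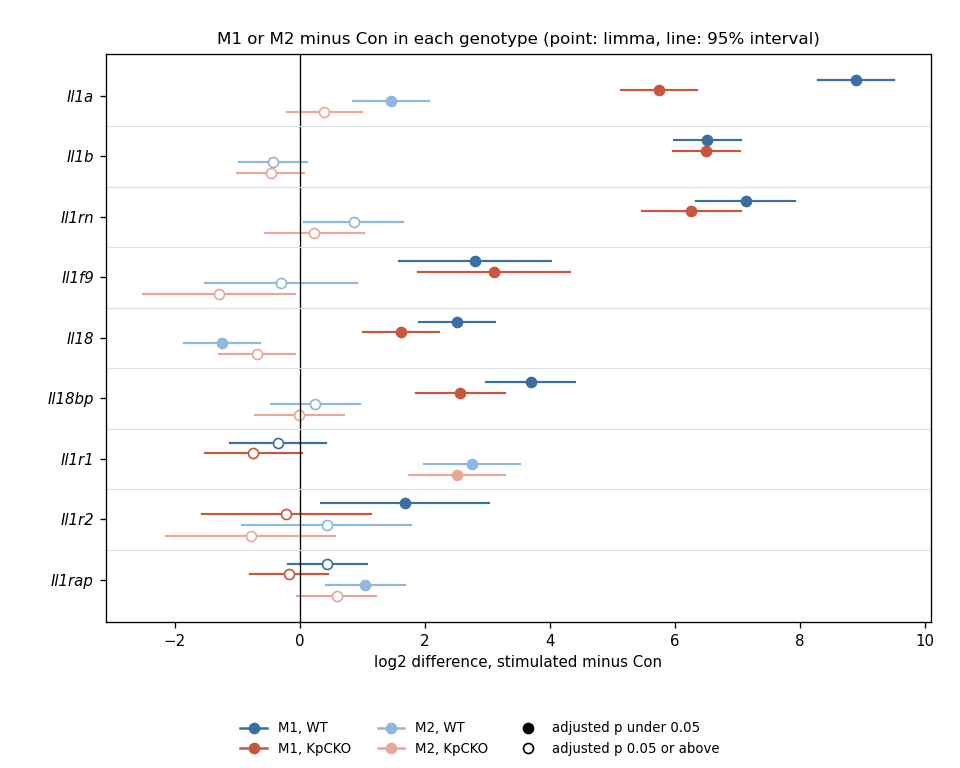
Log2 difference between stimulated and Con BMDMs (horizontal axis) of each member, for M1 and M2 in WT (blues) and KpCKO (reds), as the limma estimate (point, filled where the adjusted p is under 0.05) with its unadjusted 95% interval (line). *Il1a* rises by 8.90 in WT and 5.75 in KpCKO after M1, *Il1b* by 6.52 and 6.50, and *Il1r1* is raised after M2 only, by 2.75 and 2.51.

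Ordering the 6 groups shows how each gene was distributed. *Il1b* ran from WT M1 (mean 8.33 ± 0.78, SD, n = 2) and KpCKO M1 (5.37 ± 1.33) through WT Con (1.81 ± 1.35) and WT M2 (1.38 ± 1.45), whose arrays overlapped, to KpCKO Con (-1.14 ± 1.44) and KpCKO M2 (-1.61 ± 1.24), which also overlapped. *Il1f9* had all 3 KpCKO groups on top, at 1.31 ± 0.31 in M1, -1.80 ± 0.94 in Con and -3.09 ± 0.83 in M2, ahead of WT M1 at -4.44 ± 0.12. *Il1f9* was thus ordered first by genotype and *Il1b* first by the M1 stimulus. *Il1r1* was highest in WT M2 (-0.62 ± 0.68) and KpCKO M2 (-1.47 ± 0.14) and lowest in KpCKO M1 (-4.73 ± 0.0018). *Il1r2* had its highest mean in WT M1 (-3.15 ± 0.46), but its KpCKO Con arrays, at -6.33 and -3.09, spanned most of the range of the other groups.

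The rest of the family was read from a list of 12 other ligands and receptors, of which 11 had a probe and 6 were tested. After M1, 3 rose and 1 fell in WT, where 63.2% of all genes were called, and 3 rose and 1 fell in KpCKO, against 50.2%. *Il33*, a nuclear alarmin, rose after M1 in WT by at least 12.6-fold (fitted difference 5.45, adjusted p = 7.35e-06) and was lower in KpCKO than in WT after M1 by -2.72 ± 0.24 (limma, adjusted p = 0.00159), the 1 called difference between genotypes in this list, in a comparison with 16.0% of all genes called. *Il1f6* (IL-36α), the neighbour of *Il1f9* in the cluster, was not well above background in Con in either genotype, was at least 10.5-fold higher in M1 in WT, and differed by -1.01 between the genotypes after M1 (adjusted p = 0.269). *Il1f9* and *Il1f6* therefore had differences of opposite sign in M1, of which that of *Il1f9* passed. *Il18rap*, the accessory chain of the IL-18 receptor, rose after M1 by 4.69 in WT and 3.16 in KpCKO. *Il1rl1*, the IL-33 receptor, rose after M2 by 2.53 in WT and 2.48 in KpCKO.

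Genes next to *Il1a* and *Il1b* on chromosome 2 were not called between the genotypes at any of the 3 stimuli. *Ckap2l* and *Slc20a1*, on the *Il1a* side, differed after M1 between KpCKO and WT by -0.37 and -0.03 (limma, adjusted p = 0.487 and 0.948). *Sirpa*, the nearest measured gene on the *Il1b* side, differed by -0.17 (adjusted p = 0.482). In WT, *Sirpa* fell after M1 by 0.81 (adjusted p = 0.00393), opposite to *Il1b*. Beside *Il1f9* and *Il1rn*, *Psd4* was lower in KpCKO after M1 by -0.46 (adjusted p = 0.0466). It lies outside the rule for named genes and was chosen after its values were seen.

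Of 18 genes of signalling below the receptor, 10 rose and 5 fell after M1 in WT, against 63.2% of all genes called, and 10 rose and 4 fell in KpCKO, against 50.2%. The adaptor *Myd88* rose by 2.81 in WT (limma, adjusted p = 7.01e-06) and was lower in KpCKO than in WT after M1 by -0.74 (adjusted p = 0.012). The ubiquitin ligase *Peli1* rose by 3.36 in WT and was lower in KpCKO after M1 by -0.99 (adjusted p = 0.00426), while *Peli2* fell by 3.61 in WT and was higher in KpCKO by 0.76 (adjusted p = 0.0175). Between the genotypes, 1 of the 18 was higher and 3 were lower after M1, where 16.0% of all genes were called, and none was called in Con or M2. The median difference of the list in M1 was -0.13, and that of all tested genes -0.0868. After M2, 5 of the 18 fell in WT and 3 in KpCKO, against 16.8% and 10.2% of all genes called, with *Irak3*, an inhibitory kinase-like protein, lower by 1.34 and 0.98 as fitted falls.

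Of 16 genes of ligand maturation and release, 14 were tested, and 9 rose and 3 fell after M1 in WT, against 63.2% of all genes called, with 9 and 2 in KpCKO, against 50.2%. *Nlrp3*, the sensor of the inflammasome that leads to cutting of IL-1β, rose by 4.0 in WT and 3.67 in KpCKO. *Casp4*, the mouse gene for the caspase that senses LPS inside the cell, was lower in KpCKO at all 3 stimuli, by -1.92 in Con (limma, adjusted p = 0.0112), -0.96 in M1 (adjusted p = 0.0362) and -1.30 in M2 (adjusted p = 0.0449). It was the only gene of this list called between the genotypes in Con and in M2, where 2.21% and 1.93% of all genes were. After M1, *Casp8* was lower by -0.88 (adjusted p = 0.0112) and *Nlrc4* higher by 0.86 (adjusted p = 0.0169), with 1 higher and 4 lower among the 14, against 16.0% of all genes.

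Genes with levels most like those of 4 members were sought among 12102 named genes well above background on all 12 arrays, as a description over 12 arrays that share mice, cultures and slides. *Il1b* ran closest to *Septin2* (Pearson r = 0.991), *Zfp263* (0.989) and *Casp4* (0.985). *Il1a* ran closest to *Car2* (0.996), *Caprin1* (0.995) and *Gnb4* (0.994). *Il1rn* ran closest to *Slfn2* (0.994), *Lcp2* (0.993) and the class II gene *H2-Ab1* (0.992). *Il1r2* had no such close partner, the nearest being *Samsn1* at 0.911, *Bmt2* at 0.901 and *Cntrl* at 0.884. With 4 M1 arrays far from the other 8, a high r is common for genes that M1 moves.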

How the data were processed

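Total RNA of 12 BMDM samples was labelled with Cy3 and hybridised to 1-colour Agilent arrays, 1 sample an array. Per the file headers, spots were read by the authors in Feature Extraction 10.7.3.1. The scanner tables they deposited give, over 43379 spots, an intensity after background subtraction, the raw intensity of spot and surround, and flags (above background, saturated, outlier). No spot was saturated, and arrays are unscaled in these tables. A further table deposited by the authors holds log2 values, which over 23015 probes matched the scaled log2 intensities after centring on the median of the probe (slopes 0.99965 to 1.00029, column medians -0.0695 to 0.306). It served as an alternative.

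Outlier spots were left out, spots of a probe were averaged, and log2 intensities were set relative to the 75th percentile of their array, which ran from 548 to 1166. Probes were named through the accession in the scanner files: 26690 of 41174 probes matched a RefSeq symbol (GRCm38.p6 table, used for names and promoters; the files name mm9). The brightest probe stands for a gene. Genes that stood well above background on the 2 arrays of 1 group or more were fitted with limma 3.58.1 in R 4.3.3 over all 12 arrays, with group and culture as terms (5 residual and 1.92 prior degrees of freedom), and p-values were adjusted by Benjamini-Hochberg over all genes tested. The replicate number pairs the samples because, per the study's description, a number marks a culture with 1 WT and 1 KpCKO mouse. Deviations of same-numbered arrays correlated at 0.162 to 0.597 over 15 pairs of groups. Replicates are separate mice, and the 3 stimuli share them. Where a probe was well above background on neither array of a group, or for *Il1f9* in WT Con on 1 of 2, a fold is "at least" the bright group's mean against the mean, over the dim group's arrays, of the higher of the dim level and the lowest level well above background. The number of arrays, 2 a group, limits the precision. The fit was tested on simulated data before use.

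All 9 members are named with their values. For each of 3 further lists, counts are given over the list, with at most 3 genes of the largest called differences named per comparison. The neighbours of *Il1a* and *Il1b*, the 3 genes most like 4 of the members, and *Keap1* and *Nqo1* are named as well. The members and lists were chosen with earlier results of these data known. Alternatives covered the scaling, the background correction, the authors' table, the filter on dim probes, several probes of a gene, the culture block, the mouse as a random block, the arrays in the fit, the variance model, the methods' t-test and single arrays.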

Additional observations from a re-analysis of the deposited data

Results flagged for a closer look

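Some differences pointed in opposite directions in every sample of the groups set side by side, and the differences between them were not tested by themselves except where a p is given. *Il18bp* was higher in KpCKO than in WT in both cultures of Con (0.81 and 0.39) and lower in both of M1 (-0.53 and -0.52), a change of -1.13 from Con to M1, for which limma's interaction gave an adjusted p of 0.271. From M1 to M2, where it was again higher in KpCKO (0.54 and 0.15), the change was 0.87 and was not tested. *Il18* was lower in KpCKO in both cultures of M1 (-1.14 and -0.29) and higher in both of M2 (0.57 and 0.90), a change of 1.45 that was not tested. The change of *Il1rap* after M1 was 0.12 and 0.76 in the WT cultures and -0.16 and -0.19 in the KpCKO cultures, a difference of -0.62 with an adjusted p of 0.445 for limma's interaction. None of the single differences passed its own test. The differences listed here were picked out because their signs were opposite, which so few arrays a group can readily give by accident. How often such signs occur over all tested genes was not counted, so no reversal is inferred from them.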

How the results depend on the processing

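Counts of members called are given here by setting, in the order in which they departed from the reported ones. With the methods' t-test, the count fell from 7 to 2 for M1 in WT and to 0 in the other 6 comparisons of groups. It was not run for the differences in response. With only the arrays of the groups compared, which leaves few degrees of freedom, it was 0 for the genotype difference at each stimulus and 0 for M2 in KpCKO. Normexp gave 1 in place of 2 for KpCKO against WT in Con and in M2, losing *Il1f9*. With only genes above background on all 12 arrays, which leaves *Il1f9* out, the count in Con was 1. With no replicate block, that is without pairing the cultures, it was 1 in Con (*Il1f9*) and 0 in M2, and the difference in the M1 response had 1 (*Il1a*). That difference also had 1 in the authors' table, in genes above background on all 12 arrays and with trended and robust variances. When 1 array was left out, the counts ran from 1 to 2 for M2 in WT, 0 to 1 for M2 in KpCKO, 1 to 2 for KpCKO against WT in Con, 1 to 1 in M2 and 0 to 1 for the difference in the M1 response. The lone array left in a group was then taken to vary like the other groups. Of 1341 values of single members under alternatives, 68 lost and 12 gained a call, and no called value changed sign. 38 values that were not called changed sign. Dim probes, *Il1f9* in WT above all, limit what background correction can settle. The median of all genes after M1 in WT was 0.13 with the 75th percentile and -0.08 with quantile normalization. The cause of these changes was not tested.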
